A study of Mus musculus with 41 samples.

Results

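Zscan4c, Zscan4d, Zscan4f, Usp17la, Tcstv1 and Tcstv3 are 6 genes of the 2-cell-like state, a transcriptional state of mouse embryonic stem cells. They were taken by symbol from a table of 55487 genes, and a gene was kept where at least 3 of 41 libraries held at least 1 CPM, that is, counts per 1000000 assigned reads. Of the 6 listed genes, 4 were kept (Zscan4c, Zscan4d, Usp17la and Tcstv3), among 16967 genes of the table that met the same rule. Zscan4f and Tcstv1 never exceeded 1 read in a library (0.292 CPM) and were not tested. Zscan4d, kept with the lowest level, reached 2.92 CPM. No WT library reached 1 CPM of any of the 6, so the 4 kept genes met the rule through the KO-labelled lines alone. A difference from WT was therefore built into that choice, and counts over the kept genes do not support one.

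The cells were E14 mouse embryonic stem cells with the genotype Esrrb WT or one of 2 lines labelled Esrrb KO, KO2 and KO3. Esrrb encodes a nuclear receptor without a known ligand that helps to hold cells in naive pluripotency. All lines were grown on gelatin in N2B27 with 2iL (CHIR99021 against GSK3, PD0325901 against MEK, and LIF), and 3 libraries of each line came from this state. The others came from cells moved to fibronectin in N2B27 for 1 day and then to AloXR medium (activin A with XAV, which blocks tankyrase, and BMS439, which blocks retinoic acid receptors) for 1, 3 or 5 days, a protocol towards formative pluripotency. WT and KO2 gave 4 libraries at each AloXR time, and KO3 gave 4 at day 1, 2 at day 3 and 2 at day 5. RNA was read by QuantSeq, which counts tags near the 3′ end of polyadenylated transcripts.

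In the mouse embryo these genes are transcribed in a burst when the zygotic genome is first activated at the 2-cell stage. In cultured stem cells a small and changing fraction of cells re-enters a similar state, in which the Zscan4 genes, Usp17l genes, Tcstv genes and other recently duplicated families are transcribed together. The state is known to be opened by DUX, DPPA2 and DPPA4, and to be held back by chromatin repressors such as the SETDB1 and TRIM28 machinery. In bulk RNA a larger fraction of cells in the state and more RNA per cell cannot be told apart.

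Zscan4 genes encode zinc finger proteins with a SCAN domain, linked to telomere lengthening and genome stability. On GRCm38, Zscan4c spans chromosome 7, 11005745 to 11010547 (plus strand), Zscan4d 11161374 to 11166159 (minus strand) and Zscan4f 11397915 to 11402318 (plus strand), all inside 1 tandem array. Usp17la, a member of the Usp17-like deubiquitinase family, lies on chromosome 7 from 104857009 to 104862667. Tcstv1 (119893388 to 119894785) and Tcstv3 (120316878 to 120318178), members of a family of small proteins first found in 2-cell embryos, lie on chromosome 13. The 6 are annotated as protein coding, and no other annotated gene overlaps any of them.

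The bases upstream of the kept genes are shown because the targeted factor is a DNA-binding protein and because they show how alike the Zscan4 copies are. Promoters of 4 of the 6 listed genes were matched by symbol (RefSeq, GRCm38.p6). The 250 bases before the annotated start are printed 5′ to 3′ on the gene's strand, from chr7:11005495-11005744 (plus) for Zscan4c, chr7:11166149-11166398 (minus) for Zscan4d and chr7:104856766-104857015 (plus) for Usp17la. Capitals mark TGACCTT, which is the core Esrrb motif AAGGTCA read on the other strand, and TATAAA, the TATA box.
Zscan4c: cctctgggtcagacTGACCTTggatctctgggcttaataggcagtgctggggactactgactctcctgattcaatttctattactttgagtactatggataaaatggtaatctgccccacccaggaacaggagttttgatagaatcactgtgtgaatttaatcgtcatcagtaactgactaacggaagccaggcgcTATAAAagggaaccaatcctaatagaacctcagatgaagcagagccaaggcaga
Zscan4d: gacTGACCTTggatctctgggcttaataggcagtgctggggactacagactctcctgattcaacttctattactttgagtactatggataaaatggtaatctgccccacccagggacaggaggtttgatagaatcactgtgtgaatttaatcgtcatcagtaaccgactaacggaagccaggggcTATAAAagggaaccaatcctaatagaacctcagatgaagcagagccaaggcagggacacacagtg
Usp17la: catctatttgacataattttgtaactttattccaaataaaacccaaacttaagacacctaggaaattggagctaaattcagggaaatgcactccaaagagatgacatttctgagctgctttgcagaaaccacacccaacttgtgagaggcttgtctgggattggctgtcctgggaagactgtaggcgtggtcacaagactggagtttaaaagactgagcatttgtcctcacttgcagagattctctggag

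Over the aligned stretch of the 300-base promoters, those of Zscan4c and Zscan4d were 97.23% identical (8 differences in 289 columns), and Zscan4c and Zscan4f were 99.28% identical (2 in 277). Relative to the annotated start, the AAGGTCA match began at -236 in Zscan4c, -247 in Zscan4d and -213 in Zscan4f, and TATAAA began at -54, -65 and -31. Both positions differed between the copies by the same number of bases. Usp17la held neither sequence. Of 32851 promoters of the same length, 4.72% held AAGGTCA and 13.6% held TATAAA on either strand. None of the 4 promoters held GATTNAATC (core of the Dux motif, in 0.268% of promoters), GGATTA (a homeobox motif of the OBOX and OTX type, 7.06%) or TGCACAC (a Zscan4 motif, 4.4%). A match describes letters and not binding.

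Because the Zscan4 copies are so alike, reads from their 3′ ends can often not be placed. Of 351 windows of 50 bases in the last 400 bases of the longest annotated transcript, 137 were found in no other gene for Zscan4c, 166 for Zscan4d and 0 for Zscan4f. With 100-base windows the numbers were 208, 226 and 0 of 301. The Zscan4f reads therefore cannot be read as its level. For Usp17la 311 of 351 short windows were unique, and for Tcstv1 and Tcstv3 308 each. All 301 long windows of these 3 genes were unique. KO2 gave 4 reads of Tcstv1 and 60 of Tcstv3.

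Over the whole series, 446 reads fell on 9 annotated Zscan4 copies. Zscan4c took 127 of them (28.5%, 95% exact interval 24.3 to 32.9), Zscan4d 88 (19.7%, 16.1 to 23.7) and Zscan4a, annotated as a pseudogene, 126 (28.3%, 24.1 to 32.7). Zscan4f took 5 reads, and Zscan4b and Zscan4e took 0. In the groups with at least 37 such reads the Zscan4c share ran as follows. In KO2 in 2iL Zscan4c held 26.7% of 146 Zscan4 reads (19.7 to 34.7), in KO2 at day 1 25% of 144 (18.2 to 32.9) and in KO3 at day 1 24.1% of 54 (13.5 to 37.6). In KO3 in 2iL it held 37.8% of 37 (22.5 to 55.2) and in KO3 at day 3 41.3% of 46 (27 to 56.8), intervals that overlap those of KO2. These intervals and all floors given here cover counting error only.

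**Figure D1:**
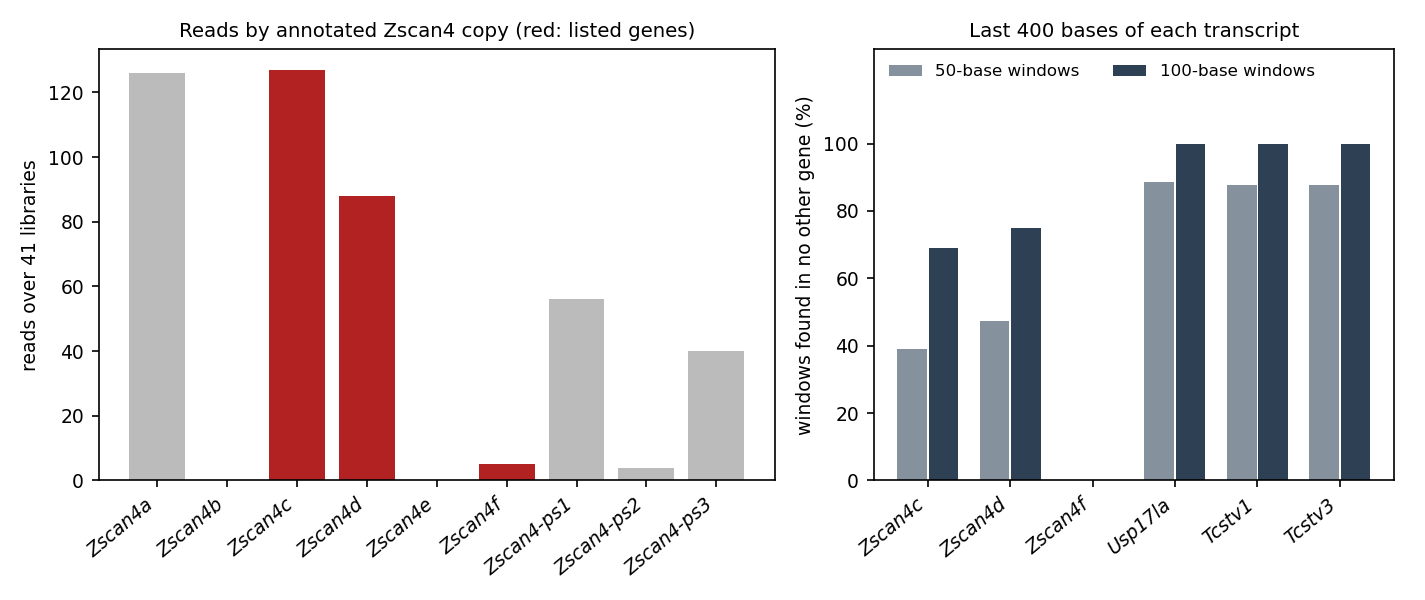
Left, reads assigned to each annotated Zscan4 copy, summed over the 41 libraries, with the listed genes in red: Zscan4c (127), Zscan4a (126) and Zscan4d (88) took most of the 446 reads. Right, percent of windows in the last 400 bases of each listed gene's transcript that occur in no other annotated gene: Zscan4f has none, and Usp17la, Tcstv1 and Tcstv3 are unique at 100 bases.

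Libraries held 3424064 to 5736053 assigned reads (median 4581394), so that 3 reads, the limit that a count of 0 allows, were 0.523 to 0.876 CPM. Replicates differed by 1.63 to 35.6 times the variance that counting alone gives, and pairs of 2iL libraries stood at 7.87 to 35.6. In each line the third 2iL library stood far from the first, at 30.6 (WT), 22.4 (KO2) and 35.6 (KO3). Replicates 1 and 2 of 2iL stood at 8.28 (WT), 11.5 (KO2) and 11.5 (KO3). The labels name no batch. Esrrb, the targeted gene, was lower than WT but present in 2iL in both KO-labelled lines (-2.11 ± 0.27, adjusted p = 4.73e-08), with 309 to 434 CPM (WT), 52.0 to 56.7 CPM (KO2) and 103 to 166 CPM (KO3). At day 1 its mean was 15.1 CPM for WT, 3.46 CPM for KO2 and 33.8 CPM for KO3, which was called above WT (1.11 ± 0.27, adjusted p = 0.00197). At day 3 it was 1.60 CPM for WT, 1.98 CPM for KO2 and 5.52 CPM for KO3, with KO3 called above WT (1.33 ± 0.33, adjusted p = 0.00256) and above KO2 (1.18 ± 0.33, adjusted p = 0.0168). The KO3 libraries of days 1 and 3 thus go against their label at the level of Esrrb tags, and at day 5 no line was called apart from WT. Which exons were removed is not in the labels, and Esrrb tags do not measure working protein. The embryonic stem cell markers (Pou5f1, Sox2, Nanog and 5 others) were all detected in every group, with a summed level in 2iL of 2164 to 2381 CPM (WT), 1306 to 1556 CPM (KO2) and 1330 to 1865 CPM (KO3).

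In WT the 6 genes were at the floor throughout. Over 15 WT libraries and 71363883 assigned reads there were 7 reads in all, 3 of Zscan4c, 1 of Zscan4d, 1 of Usp17la and 2 of Tcstv3, in 5 libraries. KO2 gave 392 reads in 15 libraries (66477018 assigned reads) and KO3 195 in 11 libraries (51015162). Such a read was found in 13 of 15 KO2 libraries and in 11 of 11 KO3 libraries. Groups were compared by limma on log2(CPM + 1), and calls needed 1.5-fold or more together with a Benjamini-Hochberg adjusted p below 0.05. With the KO-labelled lines averaged, both also had to change in the same direction. At these levels a log2 change on this scale understates the ratio of reads, so ratios of pooled reads are given as well. The intervals of these ratios cover counting error only and leave out the spread between replicates.

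In 2iL the 4 kept genes were higher in the KO-labelled lines than in WT, and the mean of KO2 lay above that of KO3. This comparison asks how the lines labelled KO differ from WT in the naive state. Zscan4c was at 3.80, 2.03 and 3.35 CPM in KO2, at 0.22, 1.20 and 1.22 CPM in KO3 and at 0 in all 3 WT libraries. Zscan4d was at 2.92, 1.62 and 2.51 CPM in KO2, at 0, 0.40 and 0.87 CPM in KO3 and at 0 in WT. For Zscan4c each of the 6 KO-labelled libraries lay above WT, KO3 replicate 1 with 1 read, and for Zscan4d 5 of 6 did. The share of all genes whose libraries separate in this way was not counted, here or for the separations of groups below.

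Usp17la had the highest level of the 4, with 16.65, 11.97 and 2.72 CPM in KO2, 1.56, 3.61 and 3.84 CPM in KO3, and 0.23, 0 and 0 in WT. Tcstv3 was at 2.34, 3.86 and 0.42 CPM in KO2, at 0.89, 0.20 and 0.17 CPM in KO3 and at 0 in WT. For both genes KO2 replicate 3 was far below replicates 1 and 2, which was not the case for Zscan4c or Zscan4d. As given above, the third 2iL library stood far from the first in each line. No KO-labelled library overlapped WT in Usp17la or Tcstv3. For Tcstv3, KO3 replicates 2 and 3 held only 1 read each, under the limit that a count of 0 allows.

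The limma change against WT, both KO-labelled lines averaged, was 2.50 ± 0.30 (SE) for Usp17la (adjusted p = 9.54e-09), 1.43 ± 0.24 for Zscan4c (adjusted p = 1.03e-05), 1.09 ± 0.24 for Zscan4d (adjusted p = 5.57e-04) and 0.99 ± 0.26 for Tcstv3 (adjusted p = 0.00395). All 4 were called, where 8.11% of all tested genes were called higher, and edgeR on the recovered reads called the 4 too (background 6.83%). A fit of these groups alone did not call Tcstv3 (adjusted p = 0.0935). In KO3 alone limma called Usp17la (1.85 ± 0.35) and Zscan4c (0.86 ± 0.28), and not Zscan4d (adjusted p = 0.29) or Tcstv3 (adjusted p = 0.332), against 6.12% of all genes called higher. Pooled over libraries, Usp17la reads in KO2 were 127 times those in WT (95% interval 22.3 to 5043, 129 reads against 1). With WT set at a floor of 3 reads over the group, Zscan4c was at least 12.8-fold higher in KO2 and at least 3.95-fold higher in KO3. On the same floor Zscan4d was at least 9.82-fold and Tcstv3 at least 9.49-fold higher in KO2.

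At day 1 of AloXR the 4 genes were again higher than WT, with the larger difference in KO2. Esrrb tags were lower than WT in KO2 and higher than WT in KO3 at this time. Zscan4c was at 1.76, 0.69, 2.33 and 4.36 CPM in KO2, at 1.31, 1.09, 0.21 and 0.23 CPM in KO3 and at 0.18, 0, 0.21 and 0 in WT. Usp17la was at 1.51, 2.76, 2.33 and 2.18 CPM in KO2, at 0.22, 0.87, 2.57 and 0.68 CPM in KO3 and at 0 in the 4 WT libraries. In both genes all 8 KO-labelled libraries lay above WT, and the ranges of KO2 and KO3 overlapped. For Zscan4c, 2 KO3 libraries held 1 read, as did 2 WT libraries, and lay above these only by their lower depth.

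Zscan4d ranged from 0.25 to 2.79 CPM in KO2 and from 0 to 1.09 CPM in KO3. Tcstv3 ranged from 0.75 to 2.73 CPM in KO2 and from 0 to 1.31 CPM in KO3, with up to 0.41 CPM in WT. Limma called the 4 genes higher (Usp17la 1.3 ± 0.26, adjusted p = 1.91e-04; Zscan4c 1.03 ± 0.21; Zscan4d 0.85 ± 0.21; Tcstv3 0.80 ± 0.23, adjusted p = 0.00803), where 6.31% of all genes were called higher. EdgeR called the 4 as well (background 6.7%). In KO3 alone only Usp17la was called by limma (0.94 ± 0.30, adjusted p = 0.0175, background 8.5%), and edgeR added Zscan4c (background 8.74%). Pooled Zscan4c reads were 22.8 times the WT level in KO2 (5.86 to 195, 36 reads against 2) and 7.33 times in KO3 (1.66 to 66.9, 13 against 2).

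At day 3 the order of the KO-labelled lines was the reverse for Zscan4c, Zscan4d and Tcstv3. The order of their Esrrb tags was not reversed, as the KO3 mean lay above that of KO2 in 2iL and at days 1 and 3. Zscan4c was at 2.47 and 1.70 CPM in the 2 KO3 libraries, at 0.23, 0, 0 and 0.19 CPM in KO2 and at 0 in WT. Zscan4d was at 2.06 and 0.49 CPM in KO3 and at 0, 0, 0.42 and 0 CPM in KO2. Tcstv3 was at 1.65 and 1.70 CPM in KO3 and at 0.23, 0.76, 0 and 0.19 CPM in KO2. In these 3 genes both KO3 libraries lay above every KO2 library, but the share of all genes that separate in this way was not counted. For Zscan4d the nearest libraries, KO3 at 0.49 CPM and KO2 at 0.42 CPM, held 2 reads each and differed only by depth.

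Usp17la did not follow them. It was at 1.85 and 1.22 CPM in KO3 and at 2.51, 1.51, 0.42 and 0.97 CPM in KO2, so that the lines overlapped. With both lines averaged, limma called the 4 genes higher than WT at day 3 (Usp17la 1.24 ± 0.28, adjusted p = 6.99e-04; Zscan4c 0.88 ± 0.22; Tcstv3 0.88 ± 0.24; Zscan4d 0.61 ± 0.22, adjusted p = 0.0394), where 10.8% of all genes were called higher. EdgeR called 3 (background 9.69%) and not Zscan4d (adjusted p = 0.0612), and its limma call ended without any 1 of the 4 WT libraries, KO2 replicate 3 or KO3 replicate 1 of day 3. KO2 alone gave only Usp17la (1.16 ± 0.30, adjusted p = 0.00388, background 7.31%), and KO3 alone gave the 4 (background 12.7%). With WT at a floor of 3 reads over the group, Zscan4c was at least 13.6-fold, Tcstv3 at least 10.7-fold, Usp17la at least 10-fold and Zscan4d at least 8.58-fold higher in KO3.

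By day 5 little was left. Zscan4d had 0 reads in all 10 libraries. Zscan4c and Tcstv3 had at most 1 read in a library of any line (0.23 CPM), and Usp17la was at 0.48 and 0.45 CPM in KO3 and at 0, 0, 0 and 0.18 CPM in KO2. Limma called 0 of the 4 against WT (0 also at an unadjusted p under 0.05), and edgeR called 0, where they called 8.89% and 9.68% of all genes higher. In KO3 alone, edgeR called Usp17la (adjusted p = 0.049, background 13%) and limma did not (adjusted p = 0.262, background 12.8%).

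**Figure D2:**
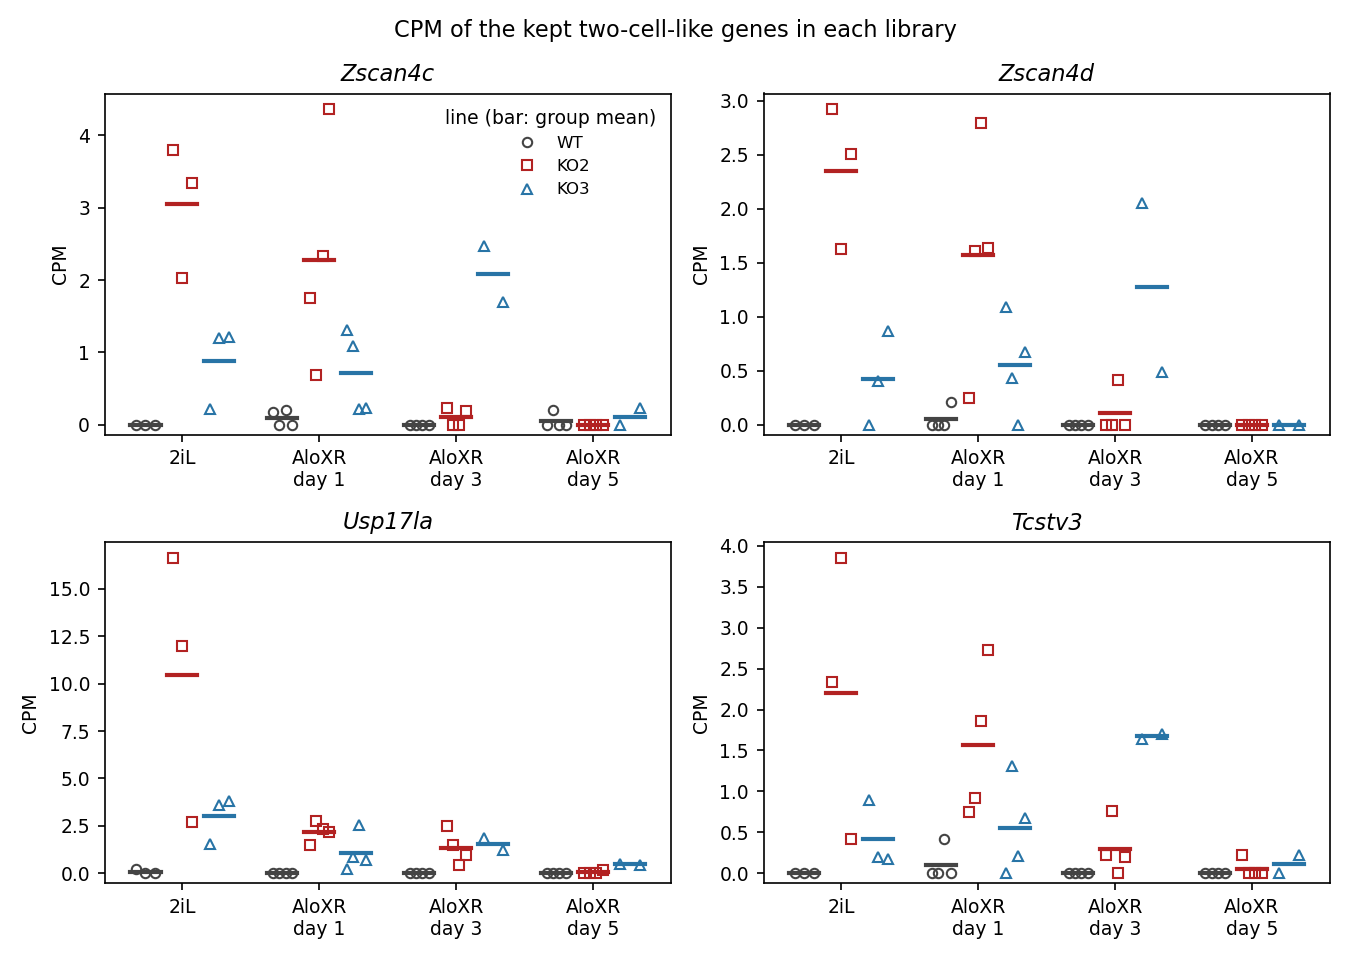
CPM (linear axis) of the 4 kept genes in each of the 41 libraries, by line and time, with a bar at each group mean. The KO2 mean stands above the KO3 mean in 2iL for each gene, with WT at or near 0 throughout. At day 3 both KO3 libraries lie above all KO2 libraries for Zscan4c, Zscan4d and Tcstv3, for Zscan4d with 2 reads each in the nearest libraries.

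The direct comparison of the KO-labelled lines gave the size of this crossing. In 2iL, KO3 was below KO2 for Zscan4c (-1.13 ± 0.28, adjusted p = 0.00475), Zscan4d (-1.26 ± 0.28), Usp17la (-1.3 ± 0.35) and Tcstv3 (-1.04 ± 0.30, adjusted p = 0.0203), 4 of 4 called by limma against 4.74% of all genes called lower. The limma spread is shared with groups at 0, and edgeR called only Usp17la (background 3.57%). A fit of these 2 groups alone called 0 (adjusted p 0.118 to 0.34), and limma called 2 without KO2 replicate 1 or 2 or KO3 replicate 1 of 2iL. At day 1 limma called 3 lower in KO3 (Zscan4c -0.88 ± 0.24, Tcstv3 -0.73 ± 0.26, Zscan4d -0.67 ± 0.24), against 6.79% of all genes, and edgeR called 0 (background 6.42%). Without KO2 replicate 4 of day 1 limma called 0 too, and without replicate 3 it called 1. In KO3, Zscan4d reached 1 CPM only in replicate 1 of day 1 (1.09 CPM) and replicate 1 of day 3 (2.06 CPM). It thus met the expression rule only with KO2 libraries of 2iL and day 1. A lower level in KO3 at these times was partly built into that choice, and counts that include Zscan4d do not support one.

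At day 3 limma called Zscan4c (1.48 ± 0.29, adjusted p = 6.45e-04), Tcstv3 (1.08 ± 0.32, adjusted p = 0.0229) and Zscan4d (0.97 ± 0.29, adjusted p = 0.0273) higher in KO3 than in KO2, where 5.58% of all genes were called higher. Usp17la differed by 0.17 ± 0.37 (adjusted p = 0.835), and its pooled reads gave a KO3 to KO2 ratio of 1.19 (0.57 to 2.39). EdgeR called only Zscan4c (background 4.18%), and without KO3 replicate 1 of day 3 limma called 0. A fit of these 2 groups alone did not call Zscan4d (adjusted p = 0.0601). The Tcstv3 call also ended without KO3 replicate 2 or KO2 replicate 3, and the Zscan4d call without KO2 replicate 2 or 4. Pooled reads of Zscan4c were 19.4 times higher in KO3 (4.67 to 171.5, 19 reads against 2), those of Zscan4d 12.2 times (2.72 to 113, 12 against 2) and those of Tcstv3 6.12 times (2.11 to 21.5, 15 against 5).

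The change from 2iL to day 3 was then compared between the 2 lines, a test chosen after seeing the data. It differed by 2.61 ± 0.40 for Zscan4c (adjusted p = 4.56e-05), 2.23 ± 0.40 for Zscan4d (adjusted p = 4.34e-04) and 2.11 ± 0.44 for Tcstv3 (adjusted p = 0.00251), each larger in KO3, and limma and edgeR called these 3. A fit of these groups alone called Zscan4c and Zscan4d. Zscan4d met the expression rule only with KO2 libraries, among them those of 2iL that enter this difference. The background was 3.09% of all genes called higher by limma and 1.61% by edgeR. For Usp17la the difference was 1.47 ± 0.51 (adjusted p = 0.0899). Leaving out any 1 library ended none of these 3 limma calls. For the change to day 1 limma called 0 (background 2.47%). For the change to day 5 it called 3 (background 5.5%) and edgeR 0 (3.06%), but with levels at or near 0 at day 5 these values largely restate the gap in 2iL, exactly so for Zscan4d.

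**Figure D3:**
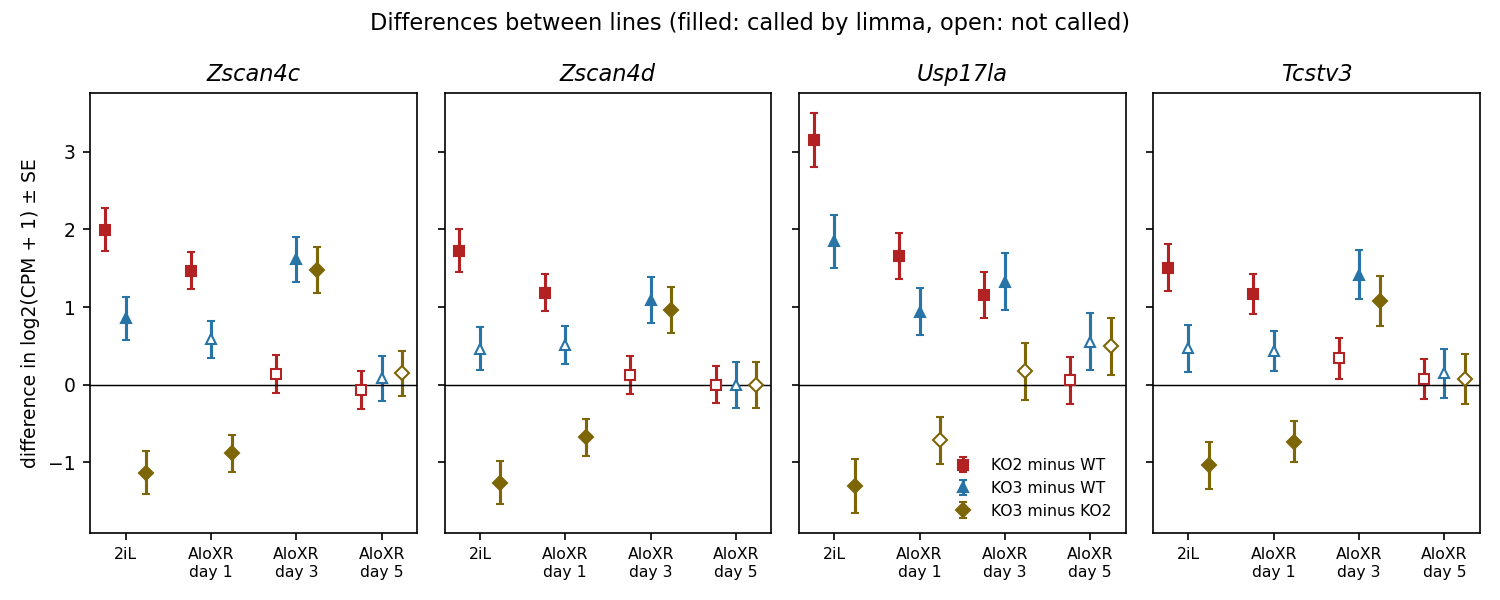
Differences in log2(CPM + 1) with standard errors (limma) for KO2 minus WT, KO3 minus WT and KO3 minus KO2 at each time, filled where called. The KO3 minus KO2 difference for Zscan4c runs from -1.13 in 2iL to 1.48 at day 3, and for Usp17la from -1.3 to 0.17.

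Other markers moved between the lines at day 3 as well. The primitive endoderm markers (Gata4, Gata6, Sox17, Sox7, Pdgfra, Dab2, Foxa2) summed to 47.7 to 48.9 CPM in KO3, with none of 7 at 0, against 7.99 to 15.9 CPM in KO2 (Sox7 at 0) and 4.26 to 7.83 CPM in WT. The trophoblast markers summed to 80.6 to 84.2 CPM in KO3 (none of 7 at 0), 35.0 to 71.4 in KO2 (none at 0) and 27 to 31 in WT (Cdx2 and Elf5 at 0). The fibroblast and feeder markers summed to 20.2 to 24.3 CPM in KO3, 56.2 to 102 in KO2 (none of 8 at 0 in either) and 20.3 to 26.8 in WT (Postn at 0). Haematopoietic markers summed to 7.40 to 8.03 CPM in KO3 (Hba-a1 at 0 among 6), 9.59 to 14.3 in KO2 and 4.34 to 8.30 in WT. At day 5, with the 2-cell-like genes near 0, primitive endoderm markers summed to 58.4 to 61.8 CPM in KO3 and 6.86 to 14.0 in KO2. Trophoblast markers then summed to 54.8 to 61.1 CPM in KO3 and 19.2 to 29.2 in KO2. The fibroblast and haematopoietic sums of KO2 and KO3 overlapped at day 5. The part of these markers in the difference of the 2-cell-like genes was not tested.

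Within each line the time course from 2iL differed. In KO2, Zscan4c had 39 pooled reads in 2iL, 36 at day 1, 2 at day 3 and 0 at day 5, and its level was at least 18.6-fold lower at day 5 than in 2iL. Limma called the 4 genes lower at day 3 (Usp17la -2.09 ± 0.32, Zscan4c -1.86 ± 0.26, Zscan4d -1.60 ± 0.26, Tcstv3 -1.17 ± 0.28) against 19.3% of all genes called lower, and lower at day 5 (-1.43 to -3.19) against 17.9%. Zscan4c, Zscan4d and Tcstv3 reached 1 CPM in KO2 libraries of 2iL and day 1, and in none of day 3 or 5. A fall in KO2 was thus partly built into the expression rule, and these counts do not support one. At day 1 only Usp17la was called (-1.58 ± 0.32, adjusted p = 1.07e-04, background 17.6%), with pooled reads 4.45 times lower (3.05 to 6.63, counting error only). The groups overlapped, as KO2 replicate 3 of 2iL (2.72 CPM) lay below the highest day 1 library (2.76 CPM). The pooled Zscan4c ratio of 2iL to day 1 was 1.34 (0.83 to 2.18). Without KO2 replicate 3 of 2iL, or KO2 replicate 3 or 4 of day 1, 2 genes were called at day 1.

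In KO3, Usp17la fell at day 1 (-1.0 ± 0.32, adjusted p = 0.0109, background 16.6%) and at day 5 (-1.39 ± 0.39, adjusted p = 0.00285, background 17.7%). The day 1 call ended without KO3 replicate 1 of day 1 or without KO3 replicate 2 or 3 of 2iL. At day 3 limma called Tcstv3 (0.95 ± 0.34, adjusted p = 0.0202) and Zscan4c (0.75 ± 0.31, adjusted p = 0.0448) above their 2iL level, where 21.3% of all genes were called higher, and edgeR called 0 (background 17.9%). Both calls ended without either KO3 library of day 3. The Zscan4c call also ended without KO3 replicate 1 of 2iL, and the Tcstv3 call without KO3 replicate 2 or 3 of 2iL. In WT 0 of the 4 genes were called at day 1, 3 or 5 by limma or edgeR (0 at an unadjusted limma p under 0.05), with levels at the floor at each time. Limma called 17.8%, 21% and 22.7% of all genes higher and 18.7%, 20.6% and 16.6% lower at these times, and edgeR 17.3%, 19.6% and 19% higher and 19.7%, 22.4% and 20.1% lower.

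Against the change in WT, with both KO-labelled lines averaged, limma called the change of 1 gene lower at day 1 (Usp17la, -1.19 ± 0.40, background 4.37%), 1 at day 3 (Usp17la, -1.25 ± 0.41, 6.37%) and 3 at day 5 (Usp17la -2.19 ± 0.41, Zscan4c -1.42 ± 0.33 and Zscan4d -1.09 ± 0.33, 10.4%). WT was at the floor in 2iL and could hardly fall, so these values largely restate the fall of the KO-labelled lines from 2iL. For Zscan4d at day 5 the value is the difference from WT in 2iL with its sign turned. In edgeR the Usp17la value was 0.14 at day 1 and -0.03 at day 3. The call at day 1 ended in 16 of the fits without 1 library and that at day 3 in 4. EdgeR called 0 at each time (background 3.21%, 5.0% and 7.01%).

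Summed over the 6 listed genes, KO2 stood at 26.3, 19.5 and 9.21 CPM in 2iL, 4.27 to 11.45 CPM at day 1, 0.834 to 2.97 CPM at day 3 and 0 to 0.228 CPM at day 5. KO3 stood at 2.67, 5.41 and 6.10 CPM in 2iL, 2.26 to 3.72 CPM at day 1, 8.23 and 5.11 CPM at day 3 and 0.483 and 0.906 CPM at day 5. The WT sum never exceeded 0.619 CPM. KO3 was thus below each KO2 library in 2iL and above each at day 3.

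Other 2-cell-like genes were counted from a list. Of 48 further listed genes, 47 were in the table, 12 of these had no read and 25 were tested. Of these 25, 17 never reached 1 CPM in a WT library and so met the expression rule through the KO-labelled lines. Limma called 21 of 25 higher than WT in 2iL (8.11% of all genes), 21 at day 1 (6.31%), 11 at day 3 (10.8%) and 2 at day 5 (8.89%), and 0 lower at any of the 4 times. EdgeR called 18, 22, 11 and 0 higher (6.83%, 6.7%, 9.69% and 9.68% of all genes). Their median change was 1.14 in 2iL and 0.56 at day 3, against 0.04 and 0.03 over all genes tested. The list was drawn up with results of these data known, and through the expression rule its counts against WT are no independent support.

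Gm21761, which lies beside Tcstv1 on chromosome 13 (119912095 to 119929272), was among them. In 2iL it had 1.75 ± 0.64 CPM (WT), 81.9 ± 24.5 CPM (KO2) and 26.6 ± 8.75 CPM (KO3; SD, n = 3 each). At day 3 it had 0.34 ± 0.42 CPM for WT, 7.24 ± 4.81 CPM for KO2 (n = 4 each) and 38.5 ± 2.21 CPM for KO3 (n = 2). The groups did not overlap at either time. It rose by 4.11 ± 0.29 in 2iL (adjusted p = 1.95e-15) and by 3.69 ± 0.27 at day 3 (adjusted p = 7.10e-15) in the KO-labelled lines. Of its 351 windows of 50 bases, 118 were unique, and it shared others with Tcstv1, Tcstv3, Gm20767 and AF067061.

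The crossing of KO2 and KO3 was seen in these genes too. The list was drawn up with results of these data known, and some of its genes share 3′ windows with the members. The counts below are therefore no independent support for the crossing. Limma called KO3 lower than KO2 for 20 of 25 in 2iL (4.74% of all genes) and 18 of 25 at day 1 (6.79%), and higher for 9 of 25 at day 3 (5.58%) and 3 of 25 at day 5 (9.02%). EdgeR called 14, 12, 5 and 3 (3.57%, 6.42%, 4.18% and 7.01%), and neither tool called any in the other direction at these times. At day 3 Gm20767 was 2.52 ± 0.34 higher in KO3 (adjusted p = 1.25e-06), Gm21761 2.48 ± 0.35 and Gm8994 2.14 ± 0.32, each also by edgeR. The difference in the change from 2iL to day 3, KO3 minus KO2, was called for 20 of 25 genes by limma (3.09% of all genes) and 14 by edgeR (1.61%), among them Gm21761 (4.06 ± 0.48), Gm20767 (3.88 ± 0.46), Gm8994 (3.41 ± 0.44) and Usp17lc (3.06 ± 0.46). Usp17lc, the relative of Usp17la, was at 7.19 CPM in KO2 and 0.86 CPM in KO3 in 2iL, and at 0.79 and 2.65 CPM at day 3, a difference that was not called (adjusted p = 0.0793). Zscan4a was at 2.81 and 0.50 CPM in 2iL and at 0.19 and 1.21 CPM at day 3.

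**Figure D4:**
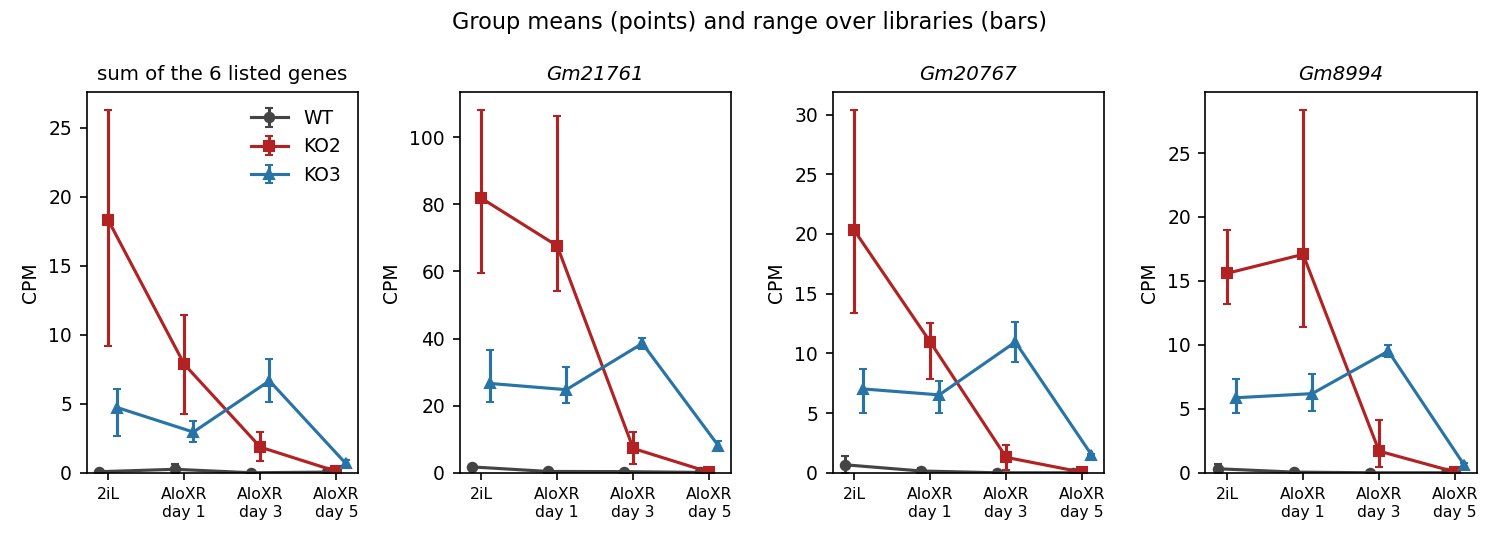
Mean CPM (points) and range over libraries (bars, linear axis) in WT, KO2 and KO3 at the 4 times, for the sum of the 6 listed genes and for Gm21761, Gm20767 and Gm8994. In each panel KO2 is higher in 2iL and KO3 at day 3, for Gm21761 with 81.9 against 26.6 CPM and 7.24 against 38.5 CPM.

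Among known activators of the state, Duxf3 (the Dux gene of this annotation) had 0 reads in all 41 libraries, and its repeated copies may hold reads that were not assigned. Of 8 other activators, limma called 3 higher than WT in 2iL (8.11% of all genes), 2 at day 1 (6.31%), 4 at day 3 (10.8%) and 3 at day 5 (8.89%), and 0 lower. Dppa2, a DNA-binding factor that acts with Dppa4 upstream of Dux, had a mean in 2iL of 12.8 CPM (WT), 70.2 CPM (KO2) and 50.3 CPM (KO3) (2.28 ± 0.30, adjusted p = 1.42e-07), with libraries of 4.10 to 22.5 CPM in WT and 22 to 88.0 in KO3, and at 0.57, 4.38 and 9.90 CPM at day 3 (2.28 ± 0.28). At day 1 Dppa2 had a mean of 47.7 CPM (WT), 34.6 CPM (KO2) and 42.6 CPM (KO3) (-0.31 ± 0.26, adjusted p = 0.442). Whether Dppa2 or another activator bears on the level of the 2-cell-like genes was not tested. Dppa4 was called at day 3 (1.01 ± 0.17) and not in 2iL (0.50 ± 0.18, under the 1.5-fold limit), and it was higher in KO3 than in KO2 at day 3. Dppa3, a maternal factor that protects methylation, rose at day 1 (1.70 ± 0.35) and at day 3 (2.19 ± 0.38). In 2iL it was just past the threshold (1.10 ± 0.41, adjusted p = 0.0499), with overlapping groups, 4 of 6 libraries in this direction and no call in a fit of these groups alone (adjusted p = 0.187).

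Of 27 repressors, 2 were called lower in 2iL (7.6% of all genes), 3 at day 1 (5.5%), 2 at day 3 (6.49%) and 2 at day 5 (11.7%), and 0, 0, 2 and 2 were called higher. These counts are near the share over all genes. Setdb1, the histone H3 lysine 9 methyltransferase, was lower in 2iL with overlapping groups (means of 57.4 CPM for WT, 31.3 for KO2 and 30.2 for KO3, -0.83 ± 0.18, adjusted p = 5.33e-04), and was not called at days 1, 3 or 5. Zmym2, a zinc finger corepressor, was lower at each time (-0.95 ± 0.12 to -1.12 ± 0.11). Of 14 telomere genes tested, Tinf2, a shelterin subunit, was called lower at each time (-0.91 ± 0.13 to -1.24 ± 0.11) and none was called higher than WT, against the same shares of all genes. The median shift of the 20 expressed neighbours against WT in 2iL was -0.005 (log2) around Zscan4c and -0.007 around Usp17la in KO2, and -0.255 and -0.039 in KO3. Around Tcstv3 it was -0.247 in KO2 and -0.204 in KO3. The neighbours of Zmym2 and Tinf2 were not examined, so whether their falls are separate changes was not tested.

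Across the 41 libraries, which share lines, times and depth, the 4 kept genes rose and fell together. Pearson's r of log2(CPM + 1) was 0.89 for Zscan4c with Zscan4d, 0.79 for Zscan4c with Tcstv3 and 0.72 for Zscan4d with Usp17la. After the group means were removed it was 0.40, 0.06 and -0.05, and for Usp17la with Tcstv3 0.39. Most of the covariation thus lay between groups, and Zscan4c and Zscan4d can share reads.

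Of 10165 genes with a mean of at least 5 CPM, Gm21761 was most like the mean of the 4 over the 41 libraries (r = 0.89), followed by the X-linked homeobox gene Rhox13 (0.78), Vti1b (0.77), Ifi27 (0.77) and Usp26 (0.76), with Sycp1, Snx1, Scml2, Ap5z1 and Nub1 at 0.75 to 0.72. Vti1b (chromosome 12, 79156017 to 79172667) overlaps the end of Arg2, a 2-cell-like gene on the other strand. Within groups the most alike were Prmt2 (0.66), Clic1 (0.61) and Prpf40b (0.60), none of which was among the first 10 over the 41 libraries. Rhox13 had a mean in 2iL of 9.06 CPM (WT), 57.6 CPM (KO2) and 25.8 CPM (KO3), and of 0.05, 9.83 and 7.03 CPM at day 3, so that it did not show the higher KO3 level at that time. Usp26 was at 1.33, 19.1 and 13.9 CPM in 2iL and at 0.64, 2.31 and 5.02 CPM at day 3.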

How the data were processed

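QuantSeq 3′ libraries were analysed from the deposited table of CPM (counts per 1000000 assigned reads) made by the authors. Alignment to GRCm38 used STAR 2.7.6a and counting featureCounts 2.0.1 (Subread), per the submitters' processing notes. Strand and multimapper settings are not given in the sources used here. Whole reads were recovered from the deposited CPM for 100% of 766190 values above 0 (tolerance 0.01 reads), and 0 columns were left unused. Genes at 1 CPM or more in at least 3 libraries entered a limma 3.58.1 fit (R 4.3.3) of log2(CPM + 1) over all 12 groups, with 29 residual degrees of freedom and 37 comparisons. A call needed a Benjamini-Hochberg adjusted p under 0.05 over all genes tested and 1.5-fold (0.58 on the log2 scale), and both KO-labelled lines had to move in the same direction where they were averaged. EdgeR 4.0.16 (quasi-likelihood) was run on the recovered reads. Intervals are exact, at 95%, and cover counting error only. The fits were tested on simulated data, with recovery required only for genes at 5 CPM or more. That test does not vouch for calls at the levels of Zscan4c, Zscan4d and Tcstv3.

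The named genes are the members, up to 4 called genes of each list with the largest change from WT, Dppa2, Dppa4, Dux and Esrrb, and the 10 genes most like the members' mean over libraries and within groups. Usp17lc, Zscan4a, Gm20767, Gm8994 and Usp26 are given in further comparisons, chosen after their values were seen. Members and lists were chosen with earlier results of these data known. The labels name no separate cultures, so p-values measure the spread between libraries of 1 WT line and 2 KO-labelled lines, which may be technical. Transcript ends came from GENCODE M21 and promoters from RefSeq. Alternatives were other pseudocounts, filters, quantile scaling, edgeR, fits of the compared groups alone, each line alone and leaving out libraries.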

Additional observations from a re-analysis of the deposited data

Results flagged for a closer look

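The change from 2iL was compared between lines in 24 tests, and 11 differences passed. Between the KO-labelled lines and WT, the change of Usp17la differed by -1.19 at day 1, -1.25 at day 3 and -2.19 at day 5 (log2 scale), that of Zscan4c by -1.42 at day 5 and that of Zscan4d by -1.09 at day 5. EdgeR called none of these 5. WT was at the floor in 2iL and could hardly fall, so these values largely restate the fall of the KO-labelled lines from 2iL.

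Between KO3 and KO2, the change to day 3 differed by 2.61 for Zscan4c, 2.23 for Zscan4d and 2.11 for Tcstv3. The change to day 5 differed by 1.28 for Zscan4c, 1.26 for Zscan4d and 1.80 for Usp17la. EdgeR called the 3 differences at day 3 and none at day 5. Zscan4d had 0 reads in all libraries of day 5, so its value there is the 2iL difference with its sign turned. Dixon's test was run on 9 combinations of a kept gene, or the sum of the 6, with a group of 4 libraries whose mean was at least 1 CPM, and no library stood apart. Groups of 2 or 3 libraries, which include those in 2iL, were not tested.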

How the results depend on the processing

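The counts below are of the 4 kept genes called. Against WT, 4, 4, 4 and 0 were called in 2iL and at days 1, 3 and 5. With a pseudocount of 5 CPM this became 1 in 2iL and 0 at days 1 and 3. In KO3 alone it was 2 in 2iL and 1 at day 1, and in KO2 alone 1 at day 3. A fit of the compared groups alone lost Tcstv3 in 2iL (adjusted p = 0.0935). Between KO3 and KO2 in 2iL, 4 became 2 (pseudocount 0.25), 1 (pseudocount 5), 1 (edgeR) and 0 (these groups alone). At day 1, 3 became 1 (pseudocount 0.25), 0 (pseudocount 5), 1 (no filter), 0 (edgeR) and 0 (these groups alone). At day 3, 3 became 0 (pseudocount 5), 1 (quantile scaling) and 1 (edgeR), and a fit of these groups alone lost Zscan4d (adjusted p = 0.0601). In the KO2 course, 1 became 2 at day 1 without the third 2iL libraries, and 4 became 2 at days 3 and 5 with a pseudocount of 5. In the KO3 course, 1 became 0 at day 1 (pseudocount 5). At day 3, 2 became 1 (pseudocount 0.25), 0 (pseudocount 5), 1 (no filter), 0 (quantile), 0 (edgeR) and 1 (groups alone). At day 5, 1 became 2 (pseudocount 0.25), 0 (pseudocount 5) and 2 (quantile). For the change from 2iL, KO-labelled lines minus WT, 1 became 0 at day 1 with a pseudocount of 0.25, no filter, quantile, edgeR, groups alone or KO3 alone. At day 3 it became 0 with a pseudocount of 0.25, no filter, edgeR, groups alone or KO3 alone, and 4 with KO2 alone. At day 5, 3 became 1 (pseudocount 5), 0 (edgeR) and 0 (KO3 alone). For KO3 minus KO2, a test added after seeing the data, 0 became 1 at day 1 without the third 2iL libraries. At day 5, 3 became 1 (pseudocount 0.25 or 5, no filter, quantile) and 0 (edgeR, groups alone). The cause was not tested. For Usp17la the difference of the change to day 1, KO-labelled lines minus WT, was -1.19 and turned to 0.14 in edgeR. EdgeR gave Usp17la a change to day 1 of -1.98 in WT, where 1 read became 0. Its change was -2.19 in KO2 and -1.47 in KO3.

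Leaving out each library gave 4 to 4, 4 to 4, 3 to 4 and 0 to 0 against WT, and 2 to 4, 0 to 3, 0 to 3 and 0 to 0 between KO3 and KO2. Courses gave 1 to 2, 4 to 4 and 4 to 4 in KO2, 0 to 1, 0 to 2 and 1 to 2 in KO3, and 0 to 0 in WT. Differences of the change gave 0 to 1, 0 to 1 and 3 to 4 for KO-labelled lines minus WT, and 0 to 0, 3 to 4 and 0 to 3 for KO3 minus KO2. No paired analysis was possible because the labels carry no replicate numbers. A filter of 5 CPM left none of the 4 genes to test. At these depths 3 reads, 0.523 to 0.876 CPM, limit what a count of 0 shows.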
